A study of Rattus norvegicus with 16 samples.

Results

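Semaphorins and ephrins are ligands that steer growing axons and, in the adult brain, act on synapses, glia and blood vessels. Class 3 semaphorins are secreted and mostly bind neuropilins, which signal through plexins. Semaphorins of classes 4 to 7 are held in the membrane and mostly bind plexins or integrins directly. Ephrin-A ligands are held by a lipid anchor and bind mainly EphA receptor tyrosine kinases, ephrin-B ligands span the membrane and bind mainly EphB receptors, and EphA4 accepts both kinds. The genes described here are all those of the array's annotation with a semaphorin, neuropilin, plexin, Eph or ephrin symbol, 38 of 15037 genes measured, each with 1 probe set. They comprise 6 class 3 semaphorins, 11 semaphorins of classes 4 to 7, 2 neuropilins, 3 plexins, 4 ephrin-A and 3 ephrin-B ligands, 6 EphA and 3 EphB receptors. Other genes of these families were not analysed here.

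Male Wistar rats of 8 to 10 weeks were treated for 60 minutes, and RNA was hybridised to 16 Affymetrix arrays, 1 for each of 4 brain regions under each of 4 treatments. The treatments were sevoflurane, an inhaled anesthetic, at 2.4%; O2, its control; propofol, given into a vein as a bolus of 10 mg/kg and then 36 mg/kg each hour; and Intralipos, a 10% lipid emulsion labelled with the same bolus and rate, as the control of propofol. All 4 groups breathed 40% oxygen at 6 L/min. The regions were cut by laser from Nissl-stained sections of 30 µm: the lateral habenula (LHb) and the medial habenula (MHb), neighbouring nuclei of the epithalamus, and 2 hindbrain nuclei, the solitary nucleus (Sol), which receives visceral input, and the medial vestibular nucleus (MVe), which receives balance input. No region had more than 1 array per treatment, so a region was compared with another over the 4 treatments, and an anesthetic with its control over the 4 regions. The labels do not say which rats gave which region, so arrays from 1 rat may enter the tests as if they were independent. In the anesthetic contrasts this would make p-values too small. How it would change those of the region tests depends on which regions shared a rat, which is not known.

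Values are log2 signals as deposited, and a difference of 1 stands for a factor of 2 if the scale, which was read from the values, is right. The sevoflurane and O2 arrays had a mean over all probe sets of 7.20 to 7.21 and the propofol and Intralipos arrays one of 6.97 to 6.99, so each set appears to have been normalized by itself. Fitted differences compare arrays of the same set, while overlaps over all 16 arrays cross the sets. Levels of different genes are not set against each other, because each rests on its own probes. The region labels were checked against marker genes: the nicotinic receptor subunit gene Chrnb3, a medial habenula marker, was at 15.30 to 17 in the MHb arrays and at 8.77 to 10.42 in the LHb arrays. Gap43, a lateral habenula marker, was at 14.51 to 15.14 in LHb and 7.35 to 8.49 in MHb. It was higher still in Sol, at 15.71 to 15.84, and at 11.91 to 12.4 in MVe, so it tells LHb from MHb but is not particular to LHb. Dbh, the noradrenaline synthesis gene of cell groups in and near the solitary nucleus, was at 10.16 to 11.88 in Sol and at most 3.78 in the other arrays. Over whole marker lists, 7 of 9 medial habenula genes were lower and 1 was higher in LHb than in MHb, 3 of 4 lateral habenula genes were higher and 1 was lower, and 2 of 3 solitary nucleus genes were higher in Sol than in MVe. No marker list specific to MVe was drawn up. The means of 23 background control probe sets lay between 3.03 and 6.50, and 13 of the 38 genes had a mean over the arrays under 6.50, so their low values may carry little signal: Efna1, Efna2, Efna4, Epha1, Epha2, Epha3, Ephb6, Plxna3, Plxnb3, Sema3a, Sema3b, Sema3g and Sema6c. Genes with a higher mean also had single arrays inside this range, and not all of these are named below.

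The 250 bases upstream of the start site are shown for 4 genes on which the region results turn: Sema3e, Nrp2 and Epha7, which were highest in MHb, and Sema7a, which was highest in MVe. The sequences are from RefSeq, on the rat build GRCr8, and run 5′ to 3′ on the gene's own strand: chr4:21510375-21510624 on the minus strand for Sema3e, chr9:71617004-71617253 for Nrp2, chr5:47771643-47771892 for Epha7 and chr8:67244068-67244317 for Sema7a, all 3 on the plus strand. Capitals mark the GC box letters GGGCGG on either strand, and each of these upstream regions is without TATAAA and TAATTA.
Sema3e: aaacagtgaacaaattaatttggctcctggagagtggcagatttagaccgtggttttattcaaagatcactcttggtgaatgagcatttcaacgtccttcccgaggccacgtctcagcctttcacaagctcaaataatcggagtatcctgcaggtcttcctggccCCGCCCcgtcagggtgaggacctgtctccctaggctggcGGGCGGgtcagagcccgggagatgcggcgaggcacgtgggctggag
Nrp2: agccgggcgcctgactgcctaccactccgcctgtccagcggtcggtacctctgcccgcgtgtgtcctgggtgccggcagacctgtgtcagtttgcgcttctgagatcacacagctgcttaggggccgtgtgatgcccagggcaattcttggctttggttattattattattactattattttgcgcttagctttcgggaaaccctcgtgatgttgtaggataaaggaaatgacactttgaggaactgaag
Epha7: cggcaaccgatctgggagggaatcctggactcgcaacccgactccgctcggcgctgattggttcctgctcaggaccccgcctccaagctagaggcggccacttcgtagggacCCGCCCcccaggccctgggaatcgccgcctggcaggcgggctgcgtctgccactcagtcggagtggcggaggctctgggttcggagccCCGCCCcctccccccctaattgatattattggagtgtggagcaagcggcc
Sema7a: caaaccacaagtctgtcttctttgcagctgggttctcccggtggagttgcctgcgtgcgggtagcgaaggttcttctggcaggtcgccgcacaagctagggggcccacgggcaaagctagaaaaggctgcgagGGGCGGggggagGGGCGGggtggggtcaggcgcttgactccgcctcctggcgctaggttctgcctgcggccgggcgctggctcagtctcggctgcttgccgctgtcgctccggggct
Sema3e, Epha7 and Sema7a each held 2 GC boxes and Nrp2 held 0. An upstream sequence was at hand for 31 of the 38 genes, with a median GC content of 58.4% against 51.2% over 33469 upstream sequences of the same length. These 33469 were not limited to the genes measured on the array. GGGCGG, searched on both strands, was in 14 of the 31, or 45.2%, against 30.5% of all. The E box letters CANNTG were in 18, or 58.1%, against 65.5%, and TATAAA was in 0 of 31 against 12.9%. TAATTA, the core of many homeobox sites, was in 1, that of Sema6b, against 4.86% of all.

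Most of the 38 genes differed among the regions. The F test over the 4 regions (limma, Benjamini-Hochberg adjustment over all genes, threshold 0.05) called 33 of them, against 54.1% of all genes tested. The 5 that did not pass were Efna2, Efna4, Epha1, Epha2 and Sema4c, and the first 4 of these were among the genes with a mean under 6.50. The distance from the highest to the lowest region mean was at least 1 in 28 of the 33 genes, at least 2 in 15 and at least 4 in 6, namely Nrp2, Sema3a, Epha7, Efnb3, Sema3e and Sema7a. Sol was the highest region for 14 of the 33, MHb for 8, MVe for 6 and LHb for 5, and MVe was the lowest region for 16, MHb for 10, Sol for 4 and LHb for 3. The highest region was the same under all 4 treatments in 23 genes and the lowest in 22. For these distances and for the highest and lowest regions the shares over all genes were not worked out. The counts therefore only describe the 33 genes and are not read as traits of the family. In 12 genes the 4 arrays of 1 region lay above all other 12 arrays, against 16.3% of all genes, and in 11 genes they lay below, against 13.1%. Within the sevoflurane and O2 arrays alone the F test called 27 of the 38 genes, against 42.9% of all genes. Within the propofol and Intralipos arrays alone it called 26, against 36.6%. All of these were among the 33.

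**Figure D1:**
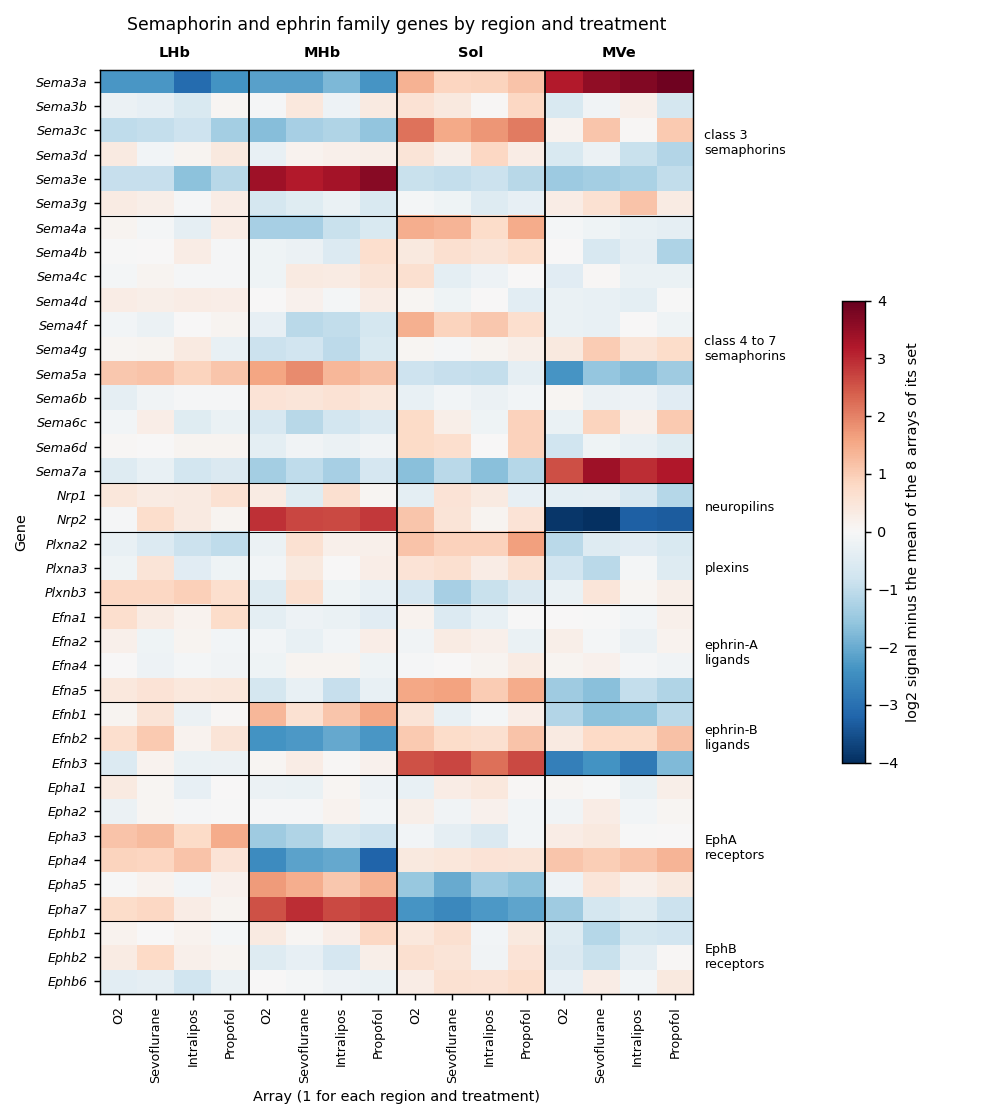
Log2 signal of each of the 38 genes (rows, grouped by subfamily) in the 16 arrays (columns, grouped by region, with the 4 treatments inside each), shown as the difference from the gene's mean over the 8 arrays of the same set, with red higher and blue lower. The colours change at the borders between regions far more than between the treatments inside a region; Sema3a and Sema7a are red in MVe, Sema3e, Nrp2 and Epha7 in MHb, and Efnb3 in Sol.

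Among the secreted semaphorins, all 6 passed the F test, with the highest region mean in Sol for 3 of them (Sema3b, Sema3c and Sema3d), in MVe for 2 (Sema3a and Sema3g) and in MHb for 1 (Sema3e). Sema3e, a ligand that binds plexin D1 without a neuropilin, was high in MHb. In the order O2, sevoflurane, Intralipos and propofol, which is kept in the sentences that follow, its levels were 16.15, 15.93, 15.86 and 16.17 in MHb. They were 11.83, 11.85, 10.89 and 11.42 in LHb, 11.88, 11.80, 11.67 and 11.42 in Sol, and 11.30, 11.40, 11.26 and 11.55 in MVe. The MHb arrays thus stood apart from the other 12, while the LHb, Sol and MVe arrays overlapped with each other. LHb minus MHb was -4.53 ± 0.17 (moderated SE, 4 treatments; adjusted p = 1.19e-12), a factor of 23.1, and was negative in 4 of 4 treatments. Sol minus MVe was 0.31 ± 0.17, and this difference did not pass.

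Sema3a, a repellent ligand that in the adult brain is part of perineuronal nets around neurons, was high in the hindbrain instead. Its levels were 10.07, 10.44, 9.74 and 9.95 in MVe and 8.26, 7.73, 6.94 and 7.19 in Sol. In LHb they were 4.57, 4.57, 2.96 and 3.67, and in MHb 4.71, 4.72, 4.25 and 3.69. Every MVe array lay above every Sol array and every Sol array above every habenula array, and no LHb or MHb level was above the range of the background control probe sets. The habenula minus hindbrain difference was -4.65 ± 0.15 (adjusted p = 1.95e-14) and Sol minus MVe was -2.52 ± 0.21 (adjusted p = 2.6e-08). The first of these differences rests on habenula levels that may carry little signal.

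Sema3c, a secreted ligand of both neuropilins, was high in the hindbrain too, but with Sol above MVe. It stood at 10.66, 10.00, 9.61 and 9.90 in Sol and at 8.63, 9.59, 7.89 and 8.87 in MVe. In LHb it was at 7.47, 7.54, 7.01 and 6.48, and in MHb at 6.78, 7.16, 6.62 and 6.26. The Sol arrays lay above all others, the LHb and MHb arrays overlapped, and habenula minus hindbrain was -2.48 ± 0.17 (adjusted p = 9.2e-10). Sema3d, which lies next to Sema3a in the genome with 0 protein-coding genes between them, did not share its pattern: its lowest region was MVe, where Sema3a was highest, and Sol minus MVe was 1.21 ± 0.21 (adjusted p = 0.000149). The dim Sema3b was higher in Sol than in MVe by 0.78 ± 0.22, but its difference under Intralipos was -0.14. The dim Sema3g, which is known from arteries, was lower in Sol than in MVe, at -0.87 ± 0.18.

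**Figure D2:**
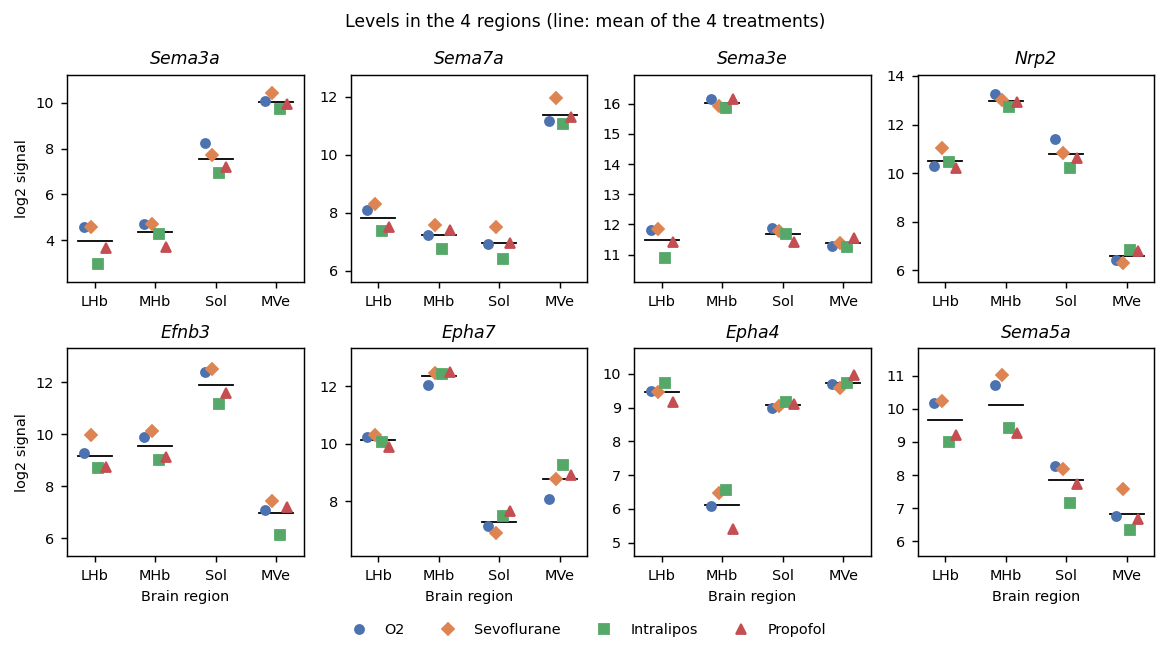
Log2 signal (vertical axes, a range of its own for each gene) of the 8 genes with the smallest F test p in the 4 regions, 1 point per array with colour and shape for the treatment, and a line at the mean of the 4 treatments. Sema3e, Nrp2 and Epha7 have their 4 highest points in MHb, Sema3a and Sema7a in MVe and Efnb3 in Sol, and Epha4 has its 4 lowest points in MHb.

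Of the 11 semaphorins of classes 4 to 7, 10 passed the F test. Sema7a, a lipid-anchored semaphorin that binds integrins and plexin C1, was high in MVe. Its levels were 11.15, 11.96, 11.05 and 11.28 in MVe, 8.08, 8.29, 7.35 and 7.50 in LHb, 7.23, 7.56, 6.75 and 7.40 in MHb and 6.91, 7.50, 6.40 and 6.95 in Sol. The 4 MVe arrays lay above all others and the other 3 regions overlapped. Sol minus MVe was -4.42 ± 0.15 (adjusted p = 2.8e-13), with 1 Sol array inside the background range, and LHb minus MHb was 0.57 ± 0.15 (adjusted p = 0.00865).

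Sema5a, a transmembrane semaphorin with thrombospondin repeats, separated the habenula from the hindbrain instead. It was at 10.71, 11.02, 9.42 and 9.28 in MHb and at 10.19, 10.25, 8.99 and 9.22 in LHb. In Sol it was at 8.29, 8.19, 7.16 and 7.74, and in MVe at 6.76, 7.57, 6.36 and 6.68. All 8 habenula arrays lay above all 8 hindbrain arrays, with a difference of 2.54 ± 0.14 (adjusted p = 4.44e-11), and the order MHb, LHb, Sol, MVe held under each treatment. LHb minus MHb, at -0.44 ± 0.20, did not pass (adjusted p = 0.108).

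Sema4a and Sema4f, both transmembrane semaphorins, shared a pattern, with Sol above all other arrays and MHb below them. Sema4a was at 11.36, 11.27, 10.61 and 11.33 in Sol and at 8.58, 8.59, 8.97 and 9.26 in MHb. Sema4f was at 8.04, 7.50, 7.61 and 7.19 in Sol and at 6.28, 5.52, 5.54 and 5.83 in MHb. Sol minus MVe was 1.49 ± 0.19 for Sema4a (adjusted p = 4.33e-06) and 1.19 ± 0.17 for Sema4f (adjusted p = 2.27e-05). All MHb arrays of Sema4f lay inside the background range. So did its MVe arrays under O2, sevoflurane and propofol, at 6.35, 6.32 and 6.35, and its LHb array under sevoflurane, at 6.37. These low values of Sema4f may carry little signal. LHb minus MHb was 1.03 ± 0.19 for Sema4a, and it did not pass within the propofol and Intralipos arrays alone, at 0.72 (adjusted p = 0.0714). Sema4g was lowest in MHb as well, at 6.73 to 7.44 against 7.48 to 9.21 in the other arrays.

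The other members of this group moved over a smaller range. Sema6d, a transmembrane ligand of class A plexins, had region means of 12.01 in Sol, 11.48 in LHb, 11.18 in MHb and 10.98 in MVe, and only Sol minus MVe passed, at 1.03 ± 0.18 (adjusted p = 0.00015). Sema6b was higher in MHb, at 10.48 to 10.94, than in all other arrays, which lay between 9.57 and 10.46. Sema4b, at 8.36 in Sol and 7.23 in MVe on average, was called between these regions, at 1.13 ± 0.25. Sema6c was lowest in MHb under each treatment, with a mean of 5.22 against 5.83 to 6.45 elsewhere. Sema4d, a ligand of plexin B1 that oligodendrocytes make, had region means within 0.52 of each other, and only habenula minus hindbrain passed, at 0.37 ± 0.11 (adjusted p = 0.0109). For Sema4c, which did not pass the F test, the region means ran from 6.80 to 7.29.

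Nrp2, the neuropilin that receives Sema3C and Sema3F, was highest in MHb and lowest in MVe under each treatment. Its levels were 13.26, 13.01, 12.74 and 12.94 in MHb, 10.29, 11.04, 10.46 and 10.22 in LHb, and 11.42, 10.83, 10.22 and 10.64 in Sol. In MVe they were 6.44, 6.32, 6.84 and 6.79. The MHb arrays lay above and the MVe arrays below all others, while LHb and Sol overlapped. MHb exceeded MVe by 6.39 in the mean, but 2 of the 4 MVe arrays lay inside the background range, so no fold is given. LHb minus MHb was -2.49 ± 0.23 (adjusted p = 9.07e-08) and Sol minus MVe was 4.18 ± 0.23 (adjusted p = 9.85e-11).

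Nrp1, the receptor of Sema3A and a co-receptor of vascular endothelial growth factor, varied much less. Its mean was 7.40 for LHb, 7.10 for MHb, 7.0 for Sol and 6.32 for MVe. Neighbours in this order overlapped over their arrays. Sol minus MVe passed at 0.68 ± 0.24 (adjusted p = 0.0337) and LHb minus MHb, at 0.30 ± 0.24, did not. In MVe, where Sema3a was highest, both neuropilins had their lowest region mean.

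The 3 plexins measured, the signalling receptors of the family, all passed the F test. Plxna2, a receptor for secreted and class 6 semaphorins, was at 11.24, 11.02, 10.59 and 11.32 in Sol and at 9.05, 9.61, 9.24 and 9.08 in MVe. In MHb it was at 9.89, 10.73, 9.89 and 9.87, and in LHb at 9.81, 9.56, 8.81 and 8.66. Sol was highest under each treatment, and Sol minus MVe was 1.80 ± 0.22 (adjusted p = 2.88e-06). The dim Plxna3, a partner of neuropilins, was higher in Sol than in MVe by 1.14 ± 0.22 (adjusted p = 0.000396). Plxnb3, a dim gene whose product binds Sema5A and which is known from oligodendrocytes, ran the other way, with Sol minus MVe at -1.0 ± 0.23 (adjusted p = 0.00171) and LHb minus MHb at 0.92 ± 0.23 (adjusted p = 0.00425). Its order of region means was LHb, MVe, MHb, Sol, and the mean level of 9 oligodendrocyte markers, at 14.52 to 15.06, 13.97 to 14.54, 12.61 to 13.30 and 11.24 to 11.54 in these regions, had the same order. Under sevoflurane, however, Plxnb3 was higher in MHb, at 6.68, than in MVe, at 6.55. Its other MVe and MHb arrays and all Sol arrays lay inside the background range. The region means of Sema4d, at 10.54, 10.03, 10.36 and 10.14 in LHb, MVe, MHb and Sol, did not follow the order of these markers. The part of oligodendrocytes in either gene's levels was not tested.

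The ephrin ligands split into those with large differences and a dim remainder. Efna5, an ephrin-A that binds EphA receptors and EphB2, was at 9.64, 9.73, 8.34 and 8.82 in Sol and at 8.53, 8.66, 7.76 and 7.77 in LHb. In MHb it was at 7.40, 7.80, 6.40 and 7.04, and in MVe at 6.68, 6.43, 6.37 and 6.12. The order Sol, LHb, MHb, MVe held under all 4 treatments, while the arrays of neighbouring regions overlapped between the sets. Sol minus MVe was 2.73 ± 0.19 (adjusted p = 2.09e-09) and LHb minus MHb was 1.02 ± 0.19 (adjusted p = 0.000329). The MVe arrays under sevoflurane, Intralipos and propofol and the MHb array under Intralipos lay inside the background range. Efna1, a dim ephrin-A, was highest in LHb under each treatment, with LHb minus MHb at 0.79 ± 0.16 (adjusted p = 0.00103), and it differed from Efna4, its neighbour in the genome with 1 protein-coding gene between them, which did not pass. Efna2 and Efna4 stayed between 3.58 and 4.74 in all arrays, inside the background range.

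Efnb3, known as a midline barrier to corticospinal axons, was highest in Sol and lowest in MVe under each treatment. Its levels were 12.37, 12.49, 11.16 and 11.59 in Sol, 9.90, 10.13, 8.99 and 9.13 in MHb, 9.27, 9.96, 8.69 and 8.72 in LHb and 7.10, 7.43, 6.12 and 7.20 in MVe. All Sol arrays lay above and all MVe arrays below the rest, and both parts of the habenula overlapped. Sol minus MVe was 4.94 ± 0.17 (adjusted p = 3.11e-13), with 1 MVe array inside the background range. LHb minus MHb, at -0.38 ± 0.17, did not pass (adjusted p = 0.123).

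Efnb2, an ephrin of arterial vessels and of neurons and glia, was low in MHb alone. It was at 6.71, 6.79, 5.85 and 5.55 in MHb and between 8.02 and 10.14 in the other 12 arrays. LHb minus MHb was 2.85 ± 0.20 (adjusted p = 1.94e-09), with 2 of the 4 MHb arrays inside the background range, and Sol minus MVe, at 0.12 ± 0.20, did not pass. Efnb1 had nearly the reverse order, with its highest mean, 8.20, in MHb and its lowest, 5.67, in MVe. All 4 MVe arrays of Efnb1 lay below the others and inside the background range. Its LHb array under Intralipos, at 6.39, lay inside that range too. Sol minus MVe was 1.49 ± 0.19 for Efnb1 (adjusted p = 6.65e-06) and LHb minus MHb was -1.04 ± 0.19 (adjusted p = 0.000382). Within the sevoflurane and O2 arrays alone this second difference did not pass, at -0.65 (adjusted p = 0.165).

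Of the 4 EphA genes that passed the F test, 2 were highest in MHb and 2 were lowest there. Epha7 was at 12.05, 12.45, 12.43 and 12.51 in MHb, 10.22, 10.32, 10.07 and 9.89 in LHb, 8.08, 8.78, 9.27 and 8.93 in MVe and 7.14, 6.90, 7.48 and 7.67 in Sol. The arrays of its 4 regions did not overlap at all, and MHb exceeded Sol by 5.06, a factor of 33.4. LHb minus MHb was -2.24 ± 0.20 (adjusted p = 7.01e-08) and habenula minus hindbrain was 3.21 ± 0.14 (adjusted p = 2.39e-12). Epha5, like Epha7 a receptor of ephrin-A ligands, was at 12.48, 12.23, 11.65 and 11.98 in MHb and at 9.26, 8.77, 9.12 and 8.94 in Sol, with LHb and MVe overlapping in between, from 10.48 to 11.28. Sol was thus the lowest region for both, with Sol minus MVe at -1.88 ± 0.18 for Epha5 (adjusted p = 2.34e-07) and -1.47 ± 0.20 for Epha7 (adjusted p = 1.27e-05).

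Epha4, the receptor that binds ephrins of both kinds, was low in MHb alone. It was at 6.09, 6.46, 6.55 and 5.40 there, at 9.49, 9.47, 9.73 and 9.16 in LHb, at 8.99, 9.04, 9.16 and 9.11 in Sol and at 9.70, 9.57, 9.74 and 9.95 in MVe. LHb minus MHb was 3.34 ± 0.19 (adjusted p = 1.78e-10), with 3 of the 4 MHb arrays inside the background range, so that no fold is given. Epha3, a dim gene, was lowest in MHb too, at 4.02, 4.23, 4.67 and 4.54, against 6.59, 6.70, 6.13 and 6.84 in LHb, where it was highest. The MHb levels of Epha3 lay within the background range, and LHb minus MHb was 2.20 ± 0.19 (adjusted p = 3.47e-08). Epha1 and Epha2 stayed between 3.32 and 4.49 in all arrays.

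All 3 EphB receptors were higher in Sol than in MVe. Ephb1, a receptor of ephrin-B ligands, had Sol minus MVe at 1.13 ± 0.18 (adjusted p = 9.07e-05), with region means of 8.80 in MHb, 8.76 in Sol, 8.48 in LHb and 7.64 in MVe. Ephb2, a receptor at glutamate synapses, differed by 0.83 ± 0.22 (adjusted p = 0.0057). Ephb6, whose kinase domain is inactive and whose signal was dim, differed by 0.49 ± 0.16 (adjusted p = 0.0265). Within the habenula, Ephb2 was higher in LHb by 0.68 ± 0.22 (adjusted p = 0.0231), but its difference under propofol was -0.1. Ephb1 and Ephb6 did not pass there.

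**Figure D3:**
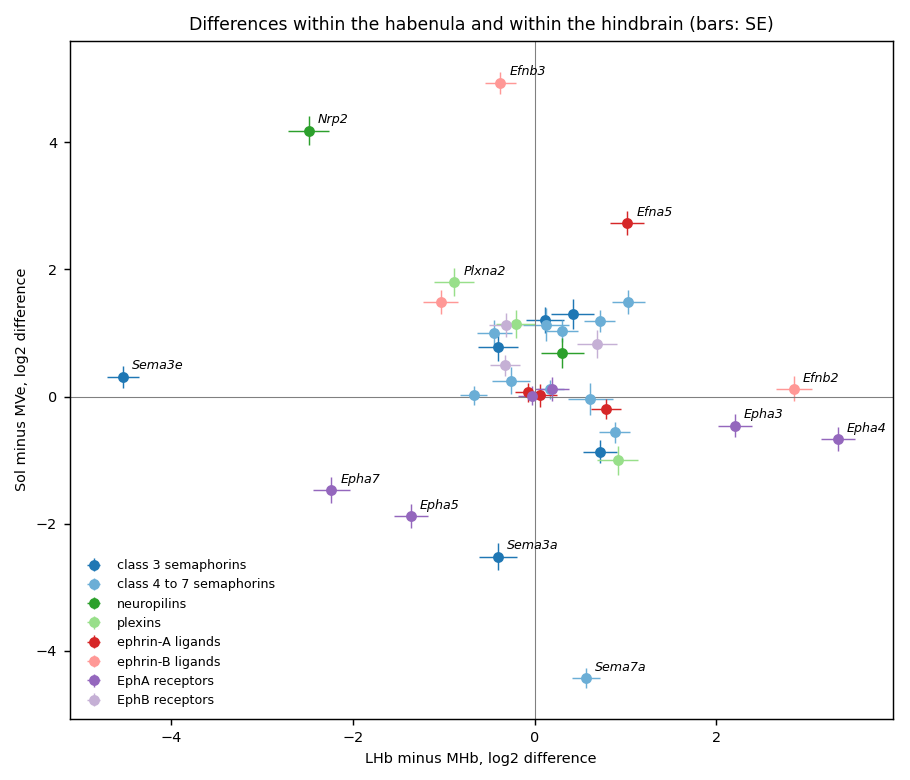
Fitted log2 difference of each of the 38 genes between LHb and MHb (horizontal axis) and between Sol and MVe (vertical axis), coloured by subfamily, with bars for the moderated SE. Sema3e and Epha4 lie at the ends of the habenular axis, at -4.53 and 3.34, and Sema7a and Efnb3 at the ends of the hindbrain axis, at -4.42 and 4.94.

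Counted by contrast, LHb was higher than MHb for 12 of the 38 genes and lower for 7, against 14.1% and 14.4% of all genes. The 5 called genes with the largest differences upward were Epha4, Efnb2, Epha3, Sema4a and Efna5, and downward Sema3e, Nrp2, Epha7, Epha5 and Efnb1. Over the 38 genes the median was 0.12, against -0.04 over all genes. Within either array set alone, 14 of the 38 genes were called. Of all genes, 18.1% were called within the sevoflurane and O2 arrays and 18% within the propofol and Intralipos arrays. Between the same regions, 8 of 9 astrocyte markers were higher in LHb and 1 was lower (median difference 2.80), as were 9 of 9 oligodendrocyte markers (1.84) and 7 of 9 markers of vessels (1.24). Of 8 markers of the choroid plexus and ependyma, which lie beside the medial habenula, 5 were lower in LHb (median -1.27), with Ttr at -6.10. Fewer cells of a type and less RNA per cell cannot be told apart in such dissected tissue, and the part of glia, vessels and choroid plexus in the differences of the 38 genes was not tested.

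Sol was higher than MVe for 18 of the 38 genes and lower for 8, against 19.3% and 16% of all genes, with a median of 0.28 against -0.02. The largest called differences upward belonged to Efnb3, Nrp2, Efna5, Plxna2 and Sema4a and downward to Sema7a, Sema3a, Epha5, Epha7 and Plxnb3. By role, 3 of 3 EphB receptors, 2 of 2 neuropilins and 2 of 3 ephrin-B ligands were called higher in Sol, and 3 of 6 EphA receptors were called lower. Within the sevoflurane and O2 arrays alone 22 of the 38 were called, against 25.7% of all genes. Within the propofol and Intralipos arrays alone 21 were called, against 21.5%. Alongside, 9 of 9 oligodendrocyte markers were lower in Sol (median -2.81), 8 of 8 microglia markers were higher (2.05), and 7 of 8 markers of choroid plexus and ependyma and 8 of 9 of vessels were lower (medians -1.32 and -1.01). Ttr, the leading choroid plexus gene, varied among the Sol arrays from 7.18 under Intralipos to 15.10 under O2. Of 5 markers of the cerebellum, which adjoins MVe, 3 were lower in Sol. Their part in the differences was not tested.

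The habenula was higher than the hindbrain nuclei for 11 of the 38 genes and lower for 11, against 18.3% and 19.8% of all genes, with a median of -0.06. Epha7, Nrp2, Sema5a, Sema3e and Epha5 led upward, and Sema3a, Sema3c, Efnb2, Sema7a and Epha4 downward. Epha5 was higher in the habenula by 1.44 ± 0.13 (adjusted p = 5.25e-08), and the difference was -1.67 ± 0.14 for Efnb2, -1.63 ± 0.11 for Sema7a and -1.61 ± 0.14 for Epha4. Several of these averages hide 1 divergent region: Sema3e was high in MHb only, Sema7a was high in MVe only, and Efnb2 and Epha4 were low in MHb only. Nrp2 and Epha5 were not higher throughout the habenula either. The LHb mean of Nrp2, 10.5, was below its Sol mean, 10.78, and the LHb mean of Epha5, 10.72, was below its MVe mean, 10.9. Within the sevoflurane and O2 arrays alone 16 of the 38 were called, against 30.7% of all genes. Within the propofol and Intralipos arrays alone 21 were called, against 23.6%. Of the marker lists, 8 of 9 astrocyte markers were lower in the habenula and 1 was higher (median -2.10), and 8 of 9 oligodendrocyte markers were higher (1.05). Of the vessel markers 8 of 9 were lower (median -0.58), and of 11 neuron markers 7 were lower and 3 higher. Their part was not tested either.

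Genes that work with these families, and other guidance genes, were compared from lists chosen with earlier results of these data known. Of 50 co-receptors, cytoplasmic partners and effectors of plexins and Eph receptors 48 were measured, and 45 passed the F test, against 54.1% of all genes; the exceptions were Adam10, a protease that cleaves ephrins, Cdc42 and Fes. LHb minus MHb called 17 upward and 12 downward, Sol minus MVe 18 and 13, and habenula minus hindbrain 15 and 21, where 28.5%, 35.2% and 38.1% of all genes were called in either direction. Vav3, a signalling protein downstream of Eph receptors, was lower in LHb than in MHb, at -3.62 ± 0.19 (adjusted p = 3.98e-11), and higher in the habenula than in the hindbrain, at 3.86 ± 0.13. L1cam, an adhesion molecule that binds Nrp1, was higher in LHb than in MHb by 3.62 ± 0.18 (adjusted p = 2.4e-11). Vav2, a relative of Vav3, was higher in the habenula by 2.40 ± 0.11. Between the hindbrain nuclei, Limk1, a kinase that inactivates cofilin, was lower in Sol, at -2.35 ± 0.16 (adjusted p = 2.76e-09), and Dpysl5, a collapsin response mediator, was higher by 2.16 ± 0.20 (adjusted p = 9.11e-08).

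Of 25 genes of the other guidance families, 20 were measured and all 20 passed the F test, against 54.1% of all genes. LHb minus MHb called 11 upward and 3 downward, Sol minus MVe 7 and 3, and habenula minus hindbrain 9 and 8, against 28.5%, 35.2% and 38.1% of all genes in either direction. Unc5d, a netrin and FLRT receptor, was higher in LHb than in MHb by 3.02 ± 0.23 and higher in Sol than in MVe by 2.88 ± 0.23. Flrt3, one of its ligands, was higher in LHb by 3.52 ± 0.20 (adjusted p = 1.93e-10). The netrin receptor gene Dcc was higher in Sol than in MVe by 2.66 ± 0.19 (adjusted p = 2.76e-09). Slit3, a ligand of Robo receptors, was lower in the habenula than in the hindbrain, at -2.80 ± 0.13, and Flrt2 was higher by 2.74 ± 0.14.

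Neither anesthetic moved any of the 38 genes past the threshold. With sevoflurane against O2, 0 of 38 were called at an adjusted p under 0.05 by limma, against 0.0% of all genes, and 2 had an unadjusted p under 0.05, as did 751 of the 15037 genes. The median over the 38 was 0.05, with 27 above 0 and 11 below. Over all genes it was 0.01, with 7934 above 0 and 7103 below. The sign counts were not tested. The 95% intervals of the 38 mean differences lay within -0.80 and 0.81 at 4 pairs of arrays. Differences in single regions, which have no replicate, ran from -1.04 to 1.16.

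Sema7a had the smallest p under sevoflurane. Its difference between sevoflurane and O2 was 0.21 for LHb, 0.33 for MHb, 0.59 for Sol and 0.81 for MVe, with a mean of 0.48 ± 0.15 (adjusted p = 0.893). It was thus above 0 in 4 of 4 regions. Efnb3 was above 0 in all 4 as well, at 0.69, 0.23, 0.12 and 0.33 in the same order of regions, with a mean of 0.34 ± 0.17 (adjusted p = 0.982). These 2 of 38 genes compare with 7.18% of all genes that lay above 0 in every region. Sema4f, at -0.13, -0.76, -0.54 and -0.03 with a mean of -0.36 ± 0.17 (adjusted p = 0.982), was the 1 gene below 0 in every region, against 6.47% of all genes. Efnb1 was below 0 in 3 of 4 regions, at 0.40, -0.71, -0.81 and -0.45, with a mean of -0.40 ± 0.19 (adjusted p = 0.982).

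With propofol against Intralipos, 0 of 38 genes were called, against 0.02% of all genes, and 5 had an unadjusted p under 0.05, as did 1040 of all genes. The median was 0.11, with 29 above 0 and 9 below. Over all genes it was 0.01, with 7860 above 0 and 7177 below, and the sign counts were again not tested. The 95% intervals lay within -0.88 and 1.10, and single-region differences ran from -1.15 to 1.20. Sema7a again had the smallest p, with LHb at 0.15, MHb at 0.65, Sol at 0.55, MVe at 0.23 and a mean of 0.40 ± 0.15 (adjusted p = 0.653). Efnb3, at 0.03, 0.14, 0.43 and 1.08, had a mean of 0.42 ± 0.17 (adjusted p = 0.677). The dim Sema6c, at 0.20, 0.18, 1.07 and 0.85, had a mean of 0.58 ± 0.25 (adjusted p = 0.696). These genes and Efnb1 lay above 0 in every region, 4 of 38 against 8.36% of all genes, and 0 lay below 0 in every region, against 6.68%. Ephb2, at -0.09, 0.89, 0.70 and 0.41, averaged 0.48 ± 0.22 (adjusted p = 0.716).

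**Figure D4:**
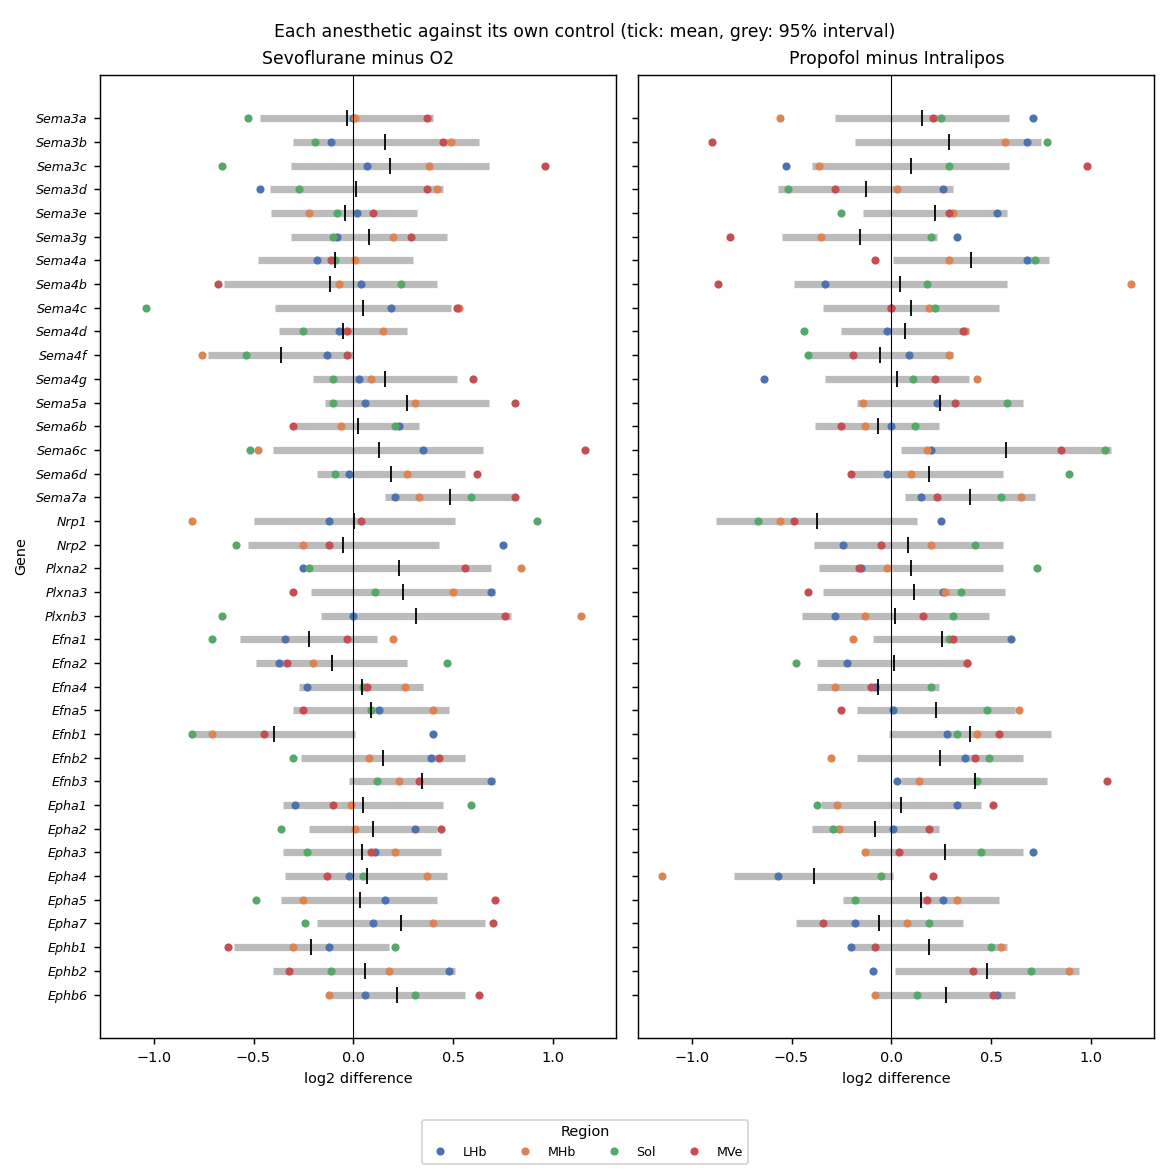
Log2 difference of each anesthetic from its own control (horizontal axes) for the 38 genes, with 1 point per region, a tick at the mean of the 4 regions and a grey bar for its 95% interval. Most bars span 0, and the points of Sema7a lie to the right of 0 in both panels, from 0.21 to 0.81 for sevoflurane and from 0.15 to 0.65 for propofol.

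A contrast of the sevoflurane effect with the propofol effect called 0 of the 38 genes, against 0.0133% of all genes, with 1 of the 38 and 754 of all genes at an unadjusted p under 0.05. That gene was Efnb1, which lay above 0 in all 4 regions under propofol, at 0.28, 0.43, 0.33 and 0.54, and below 0 in 3 of 4 under sevoflurane. The difference was -0.79 ± 0.27 with a 95% interval from -1.36 to -0.22 and did not pass (adjusted p = 0.946). Efna1 followed at -0.47 ± 0.23, Sema4a at -0.49 ± 0.26 and Epha4 at 0.46 ± 0.27, with adjusted p of 0.991 to 0.994. Of 8 markers of choroid plexus and ependyma, 6 lay below 0 and 2 above in this contrast (median -0.65). Of these 8, 4 had an unadjusted p under 0.05, with Ttr at -2.95 ± 1.32. Of 9 oligodendrocyte markers, 9 lay below 0 (median -0.32). None of these markers was called, and their part in the differences of the 38 genes was not tested.

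Whether an anesthetic acted differently in the habenula and in the hindbrain was tested with 2 regions on each side. For sevoflurane 0 of 38 genes were called, against 0.0% of all genes, with 1 of the 38 and 803 of all genes at an unadjusted p under 0.05. Nrp1 had the smallest p: sevoflurane minus O2 was -0.12 in LHb and -0.81 in MHb, and 0.92 in Sol and 0.04 in MVe, a difference of -0.94 ± 0.40 (adjusted p = 0.927). Plxna3 came next at 0.69, followed by Ephb6 at -0.50 and Sema4c at 0.61. For propofol 0 of 38 were called as well, against 0.0% of all genes, with 2 of the 38 and 816 of all genes at an unadjusted p under 0.05. Propofol minus Intralipos for Epha4 was -0.57 for LHb, -1.15 for MHb, -0.05 for Sol and 0.21 for MVe, a difference of -0.94 ± 0.30 (adjusted p = 0.849). Sema3c, at -0.53, -0.36, 0.29 and 0.98, differed by -1.07 ± 0.43 (adjusted p = 0.918), Efnb3 by -0.68 ± 0.32 and Sema4b by 0.78 ± 0.50.

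The partner and guidance lists had no called gene under either anesthetic. Of the 48 partners and effectors, 4 had an unadjusted p under 0.05 with sevoflurane and 4 with propofol, and of the 20 other guidance genes 0 and 5, where 751 and 1040 of the 15037 genes did. No gene of the marker lists was called either. Of 8 choroid plexus and ependyma markers, 6 lay above 0 and 2 below with propofol, and 4 and 4 with sevoflurane. Ttr in the Sol arrays was at 15.1 under O2, 12.18 under sevoflurane, 7.18 under Intralipos and 13.28 under propofol. The part of such shifts in the anesthetic differences was not tested.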

How the data were processed

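The values are the log2 signals that the authors deposited, 1 per probe set and array, and per the submitters' processing notes they come from Affymetrix Expression Console 1.3.0. That the scale is log2 was read from the values. How probes were summarized, and on which genome build, is not given in the sources used here. Of 24834 probe sets, 15049 carried 1 gene symbol in the platform annotation, and the brightest per gene gave 15037 genes. Without further normalization or filter, limma 3.58.1 (R 4.3.3) was used to fit region and treatment effects over the 16 arrays (lmFit, eBayes, 9 residual degrees of freedom, two-sided), and p-values were adjusted over all genes by the Benjamini-Hochberg method. The habenula and hindbrain effects of an anesthetic came from a fit with treatment by division, with 6 residual degrees of freedom. Errors after ± are moderated standard errors. Simulated arrays with known changes were run through the fit of region and treatment, for LHb minus MHb and sevoflurane minus O2 only. The F test, the other contrasts and the fit with treatment by division were not simulated.

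The genes, the partner, guidance and marker lists and the naming rule were chosen with earlier results of these data known. The rule named the 5 largest called differences in each direction per region contrast with 1 sign in all 4 treatments, the 8 smallest p of the F test, the member with the highest mean in each subfamily, and the 4 smallest p per anesthetic contrast. From the partner and guidance lists it named the 2 largest called differences per region contrast. Chrnb3, Gap43 and Dbh and other members given beside these were chosen after their values were seen. Alternatives left out arrays, regions or treatments, or changed the filter, normalization, variance estimate, probe choice, block and array set. Figures were drawn with matplotlib 3.10.9.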

Additional observations from a re-analysis of the deposited data

Results flagged for a closer look

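Of 38 groups of 4 single-array differences of named genes, 1 held a value far from the other 3, about as many as chance gives at 1 in 20. Sol minus MVe of Sema3a was -1.81 under O2 against -2.71 under sevoflurane, -2.80 under Intralipos and -2.76 under propofol. Sema3a in the Sol array under O2 was at 8.26, the highest of the 4 Sol arrays, and all 4 differences had the same sign.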

How the results depend on the processing

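Leaving out 1 array, or all arrays of 1 treatment, gave 30 to 33 genes called by the F test, 17 to 20 between LHb and MHb, 22 to 27 between Sol and MVe, 20 to 23 between habenula and hindbrain, and leaving out 1 array, or for the 3 contrasts over all regions 1 region, gave 0 to 0 of the 38 in the anesthetic contrasts. In the region tests these fits called 46.7% to 53.1%, 23.5% to 29.2%, 29.1% to 35.4% and 31.7% to 37% of all genes. Leaving out genes under the 40th percentile of mean signal, which tested 28 of the 38, gave 27, 15, 22 and 20. Of all genes kept, 79.6%, 45.9%, 53.8% and 58.5% were called. Quantile normalization gave 33, 19, 25 and 22, against 54.3%, 29%, 34.8% and 38.3% of all genes. The trend and robust variance estimates gave the same 4 counts, against 53.9%, 29.3%, 35.8% and 38.8%. Averaging probes could not change them, since each gene has 1 probe set. The fits within 1 array set, which hold fewer arrays, are given with the results, and lost the call of 1 named gene each, Efnb1 and Sema4a between LHb and MHb. No called difference of a named gene changed sign. When regions were blocked separately in each array set, 0 of the 38 were called in the 3 anesthetic contrasts over all regions. No paired analysis by replicate number was possible because the labels carry no replicate numbers. The precision is limited by 1 array per region and treatment, and for 13 genes by a mean signal under the top of the background range.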
